A study of Mus musculus with 36 samples.

Results

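The livers of 28 female mice were compared to set apart lines with neural tube defect mutations that respond to dietary folic acid from lines that do not, 1 Affymetrix expression array per mouse, out of 36 arrays in all. The members were chosen by array title, and the 8 curly tail (Ct) and CBA arrays were left out. The responsive class held heterozygotes of the strains labelled Pax3Sp2H (the Pax3 line) and Lrp6Cd (the Lrp6 Cd line, array title Cd-Het). The resistant class held heterozygotes of Apobtm1Unc (the Apob line) and Vangl2Lp (the Vangl2 Lp line, array title Lp-Het). Wild-type mice of the Lrp6Cd strain (Cd-WT) and of the Vangl2Lp strain (Lp-WT) were the controls of those 2 lines, and C57BL/6J mice (B6) served as controls for Pax3 and for Apob alike, per the labels. Each of the 7 groups held 4 biological replicates, all aged 6 to 8 weeks and fasted for 4 to 5 hours before dissection. No folate treatment is among these groups, so the class of a line is its label for dietary folic acid. The labels do not say whether wild types and heterozygotes were littermates, and they give the strain of each mutant group only by its allele. The 4 mutant groups are labelled heterozygous, and each class is represented by 2 lines.

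Folate carries one-carbon units for the synthesis of purines and thymidylate and for the remethylation of homocysteine to methionine, the precursor of the methyl donor S-adenosylmethionine. The liver stores most of the folate in the body and is where the methionine cycle runs most actively. Pax3 regulates transcription in the dorsal neural tube and neural crest, Lrp6 is a co-receptor for Wnt proteins, Vangl2 a membrane protein of planar cell polarity and Apob the scaffold of the lipoprotein particles in which hepatocytes export triglyceride.

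The contrast was the mean of the Pax3 effect (Pax3 minus B6) and the Lrp6 Cd effect (Cd-Het minus Cd-WT), minus the mean of the Apob effect (Apob minus B6) and the Vangl2 Lp effect (Lp-Het minus Lp-WT), on the scale of log2(signal + 23). A positive value means higher in the responsive lines, relative to their controls, than in the resistant lines. The B6 arrays cancel out of it, since they are subtracted in both classes, and count only toward the spread. A line's contribution was its effect divided by 2, with the sign turned for resistant lines, so that the 4 contributions add up to the contrast. The leading line of a gene has the largest contribution in the direction of the contrast. A gene was called single-line where that contribution was over 50% of the contrast, and 4-line where no line passed 50% and all 4 lines lay in its direction.

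Of 13178 genes tested, 17 passed (limma, adjusted p below 0.05), which is 0.129% of them. In total 13 were higher and 4 lower in the responsive lines. The promoters of 3 of them are shown because their calls held in most fits that left out an array. They run from 250 bases before to 50 bases after the first listed gene start (RefSeq, GRCm38.p6), on the strand of the gene and 5′ to 3′. Capitals mark the GC box GGGCGG, the E-box CACGTG, the CCAAT box CCAAT and the TATA box TATAAA on either strand.
Prmt1, chr7:44986371-44986670, minus strand: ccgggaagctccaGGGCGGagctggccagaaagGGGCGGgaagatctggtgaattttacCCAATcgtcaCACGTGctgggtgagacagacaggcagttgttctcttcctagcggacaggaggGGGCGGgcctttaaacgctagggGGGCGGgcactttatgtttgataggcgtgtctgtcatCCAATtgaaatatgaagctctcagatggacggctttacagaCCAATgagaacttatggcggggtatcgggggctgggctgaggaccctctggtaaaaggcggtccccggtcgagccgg
Dennd1a, chr2:38287335-38287634, minus strand: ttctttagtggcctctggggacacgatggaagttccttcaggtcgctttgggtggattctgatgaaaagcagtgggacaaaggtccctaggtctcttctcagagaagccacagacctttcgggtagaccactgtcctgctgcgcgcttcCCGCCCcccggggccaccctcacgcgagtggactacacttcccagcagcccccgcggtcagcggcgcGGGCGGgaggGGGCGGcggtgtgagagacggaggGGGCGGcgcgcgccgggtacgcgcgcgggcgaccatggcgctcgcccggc
Frmd4b, chr6:97617608-97617907, minus strand: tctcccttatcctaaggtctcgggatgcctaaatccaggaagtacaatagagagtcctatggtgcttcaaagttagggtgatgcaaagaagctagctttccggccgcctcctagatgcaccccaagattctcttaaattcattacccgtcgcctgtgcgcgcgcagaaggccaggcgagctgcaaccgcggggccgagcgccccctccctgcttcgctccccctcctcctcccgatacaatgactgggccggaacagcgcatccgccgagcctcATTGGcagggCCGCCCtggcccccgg
Among the 14 called genes with an entry, 10 held a GC box, 5 a CCAAT box, 2 an E-box and 0 a TATA box. Over all 27025 promoters of that length, 35.9% held a GC box, 37.9% a CCAAT box, 7.24% an E-box and 14.2% a TATA box. These include promoters of genes that were not tested here, so the 2 sets are not alike, and the shares among tested genes were not computed. A match describes these letters and is not a binding site.

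The Apob line led 14 of the 17 genes, the Vangl2 Lp line 2 (Arnt and Ap1m2), the Lrp6 Cd line 1 (Cdk19) and the Pax3 line 0. Over all genes tested, whatever their p, the Apob line led 31.9%, Vangl2 Lp 30.2%, Pax3 23.1% and Lrp6 Cd 14.9%. All 9 single-line genes among the 17 rested on Apob: Erdr1, Bicd2, Frmd4b, Gprin3, Dhx36, Mindy2, Rnf11, Zfp148 and Prmt1. The other 8 were 4-line genes: Irf2bp2, Dennd1a, Galnt7, Arnt, Cdk19, Ap1m2, Aqp1 and Nat8f2. By the same rule, 3834 of all 13178 genes tested were single-line on Apob, 3573 on Vangl2 Lp, 2770 on Pax3 and 1741 on Lrp6 Cd. Most genes thus bear the single-line label. All 4 lines lay in the direction of the contrast in 10.5% of all genes tested, and in 10 of the 17, which their choice by the contrast favours. With 2 lines against 2, an exact permutation of the class over lines cannot give a two-sided p below 0.333, so the adjusted p of a gene measures the spread between mice within groups and not the spread between lines. An unadjusted p below 0.05 was reached by 1757 genes, or 13.3% (limma). Of these, Apob led 38.1%, Vangl2 Lp 34.8%, Pax3 19.1% and Lrp6 Cd 8.03%.

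**Figure D1:**
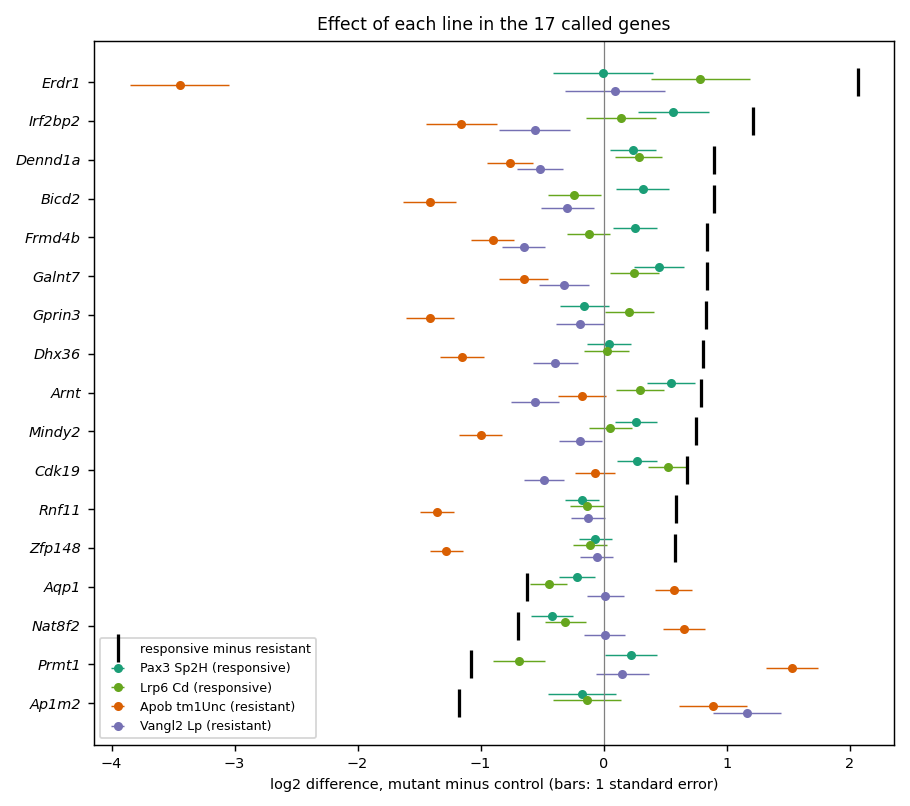
Log2 difference of each line from its control (coloured points, bars 1 standard error) and the contrast (black bars) for the 17 called genes. The Apob point lies farthest from 0 in most rows, and for Arnt, Cdk19 and Ap1m2 another line lies as far or farther.

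Erdr1, a pseudoautosomal gene named for erythroid differentiation, had the largest contrast, 2.07 ± 0.35 (SE; limma adjusted p = 0.0178). The signals of the 4 Apob arrays were 616, 267, 174 and 196. Those of the B6 arrays were 2201, 2677, 4296 and 4345, and every Apob array lay below every B6 array. The Pax3 arrays read 1805, 2052, 3877 and 7569.8 and overlapped B6. Cd-Het arrays had 1732, 2278, 3012 and 3682 and Cd-WT arrays 577, 2077, 1901 and 2088, where replicate 1 alone was low. Both Vangl2 groups were low, Lp-Het at 624, 413, 786 and 735 and Lp-WT at 638, 658, 497 and 545, with a line effect of 0.095, and the Apob arrays overlapped them. The Apob effect was -3.45 ± 0.40 and its contribution 83.3% of the contrast. The probe set is of a kind that can share targets with other genes, and the other Erdr1 probe set gave a contrast of 0.29.

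Prmt1, the main enzyme that places asymmetric dimethylarginine with S-adenosylmethionine as the methyl donor, was lower in the responsive lines, with a contrast of -1.08 ± 0.18 (limma adjusted p = 0.0178). The Apob arrays read 689, 552, 665 and 561, against 166, 181, 227 and 219 in B6 and 200.4, 216, 324 and 212 in Pax3. All Apob arrays lay above all B6 and all Pax3 arrays. Cd-WT arrays were as high as Apob, at 585, 553, 497 and 646. The Cd-Het arrays split, with 508, 459, 221 and 264, and both Vangl2 groups were low, at 141 to 231 in Lp-Het and 129.7 to 216 in Lp-WT. The effects were 0.23 in Pax3, -0.69 in Lrp6 Cd, 1.53 in Apob and 0.15 in Vangl2 Lp, so that Apob carried 71.3% of the contrast, Lrp6 Cd added to it and Pax3 opposed it.

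Dennd1a, an exchange factor for Rab35 in endocytosis, was a 4-line gene. Its signals were 311, 373, 442 and 514 in Pax3, 161, 212, 139.8 and 269 in Apob and 314, 301, 369 and 374 in B6. In the Lrp6 pair they were 283, 365, 382 and 368 in Cd-Het and 249, 340.1, 258 and 284 in Cd-WT. In the Vangl2 pair they were 230.3, 188, 268 and 157 in Lp-Het and 235, 310.4, 338 and 354 in Lp-WT. Apob lay wholly below B6, and the groups of the other 3 lines overlapped their controls. The effects were 0.24 in Pax3, 0.28 in Lrp6 Cd, -0.76 in Apob and -0.52 in Vangl2 Lp, the contrast 0.90 ± 0.16 (limma adjusted p = 0.0232), and the leading share 42.3% for Apob.

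Frmd4b, a FERM domain scaffold protein, had lower signals in both resistant lines and was called in the Apob line alone (limma adjusted p = 0.00443, and 0.118 in Vangl2 Lp). Its signals were 1706, 2198, 1519 and 1894 in Apob against 3745, 3879, 3747 and 2475 in B6, and 3101, 2461, 2294 and 2309 in Lp-Het against 4137, 4194, 3449 and 4146 in Lp-WT. Neither pair of groups overlapped. The responsive lines overlapped their controls, with 3637 to 4499.9 in Pax3, 2645 to 4365 in Cd-Het and 3041 to 5629.7 in Cd-WT. The effects were 0.26 in Pax3, -0.12 in Lrp6 Cd, -0.90 in Apob and -0.65 in Vangl2 Lp, and the contrast was 0.84 ± 0.15 (limma adjusted p = 0.0232). Apob carried 53.5%, just past the 50% that defines a single-line gene, and Vangl2 Lp most of the remainder. The 4 other Frmd4b probe sets gave contrasts of 0.11, 0.37, 0.72 and 0.56. Their Apob effects were -0.61, -0.45, -1.25 and -1.01, and their Vangl2 Lp effects 0.038, -0.12, 0.064 and -0.28. The Vangl2 Lp effect of -0.65 is thus that of the probe set used.

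Irf2bp2, a corepressor that partners Irf2, had the second largest positive contrast, 1.21 ± 0.25 (limma adjusted p = 0.0444). Pax3 arrays read 1682, 1972, 2681 and 2233, B6 arrays 1835, 1864, 1291 and 914 and Apob arrays 466, 808, 477 and 833. Pax3 lay wholly above Apob, with B6 between them and overlapping Pax3. Cd-Het ran over 711 to 1044 and Cd-WT over 541 to 1019.8, and Lp-Het over 542 to 1367 and Lp-WT over 651 to 1689. The effects were 0.57 in Pax3, 0.14 in Lrp6 Cd, -1.16 in Apob and -0.56 in Vangl2 Lp, all in the direction of the contrast. The 3 other probe sets had contrasts of 0.68, 0.41 and 0.65. Their Vangl2 Lp effects were 0.14, 0.012 and -0.26, of which only the last lay in that direction. Galnt7, an enzyme of mucin-type O-glycosylation, was another 4-line gene whose other probe sets gave like contrasts (0.74 and 0.63) but not the same line effects. Its contrast was 0.84 ± 0.17, with signals of 291, 289.9, 637 and 308 in Pax3, where replicate 3 was high, 240.2, 304, 236 and 254 in B6 and 152, 138, 132 and 211 in Apob. Every Cd-Het array (228 to 281) lay above every Cd-WT array (198 to 224), and Lp-Het (166 to 257) overlapped Lp-WT (200.3 to 338). In the other Galnt7 probe sets the Vangl2 Lp effect was 0.29 and 0.19, against the direction of the contrast. Their Apob effects were -1.36 and -0.50 and their Pax3 effects -0.028 and 0.72.

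Arnt and Cdk19 were the called genes in which Apob had little part. Arnt, the dimer partner of the aryl hydrocarbon receptor and of hypoxia-inducible factors, had signals of 673, 614, 497 and 673 in Pax3, 351, 536, 431 and 345 in B6 and 331, 369, 386 and 358 in Apob. In the Lrp6 pair every Cd-Het array (451 to 639) was above every Cd-WT array (397 to 446). Lp-Het read 326, 237, 498 and 524 and Lp-WT 476, 729, 673 and 442, which overlapped. The effects were 0.55 in Pax3, 0.30 in Lrp6 Cd, -0.17 in Apob and -0.56 in Vangl2 Lp, and the leading line, Vangl2 Lp, carried 35.3% of a contrast of 0.79 ± 0.17. Cdk19, a kinase of the Mediator complex, was led by Lrp6 Cd with 38.8%. Its signals were 371, 391, 345 and 436 in Cd-Het, all above the 227, 266, 273 and 278 in Cd-WT. Lp-Het read 309.6, 291, 347 and 273 and Lp-WT 341, 438, 592 and 400.4, which overlapped, as did Pax3 (354 to 425), B6 (228 to 405) and Apob (284 to 374). The contrast of Cdk19 was 0.68 ± 0.14, and the Lrp6 Cd effect minus the Vangl2 Lp effect made up 74.6% of it.

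Ap1m2, the epithelial medium subunit of the clathrin adaptor AP-1, was higher in the resistant lines, and the arrays of both lay above those of their controls without overlap. Its signals were 209, 118, 139 and 166 in Apob against 59.9, 72.7, 77.9 and 84.2 in B6, and 110.0, 114, 68.6 and 91.7 in Lp-Het against 30.7, 21.1, 38.8 and 29.0 in Lp-WT. Pax3 (28.4 to 95.6), Cd-Het (39.1 to 94.3) and Cd-WT (37.3 to 97.4) all overlapped one another. The contrast was -1.18 ± 0.24 (limma adjusted p = 0.0444), led by Vangl2 Lp with 49.3%, with Apob at a like size, and neither line was called on its own (limma adjusted p = 0.0665 and 0.0777). All 4 Lp-WT signals lay below 62.0, the signal at the filter on low values, and the contrast ran from -1.42 with an offset of 8 to -0.82 with an offset of 64. 

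Aqp1, a water channel, and Nat8f2, an N-acetyltransferase of the Nat8 family, were lower in the responsive lines. The Vangl2 Lp line was near 0 in the probe sets used. Aqp1 read 3393, 3066, 3379.9 and 2781 in Cd-Het, all below the 4488, 4338, 4184 and 4178 in Cd-WT, and 3324, 2646, 2803 and 2699 in Apob, all above the 1527, 1634, 2083 and 2594 in B6. Pax3 (1371 to 1925) overlapped B6, and Lp-Het (1687 to 2179) overlapped Lp-WT (1646 to 2412). Nat8f2 read 14716, 16968, 16253 and 15339 in Apob, above every other array of the 28. Its Pax3 arrays had 8541, 6734, 6227 and 8802 and its B6 arrays 8088, 9564, 11370.1 and 11478, with an overlap, and the effects were -0.42 in Pax3, -0.31 in Lrp6 Cd, 0.65 in Apob and 0.0085 in Vangl2 Lp. The contrasts were -0.62 ± 0.13 for Aqp1 and -0.70 ± 0.15 for Nat8f2 (limma adjusted p = 0.0444 for both). The 2 other Nat8f2 probe sets gave larger contrasts, -0.95 and -1.17. Their Vangl2 Lp effects were 0.36 and 0.33. In the probe sets used, the Vangl2 Lp effect was 0.013 in Aqp1 and 0.0085 in Nat8f2, so that its part in Nat8f2 depended on the probe set.

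**Figure D2:**
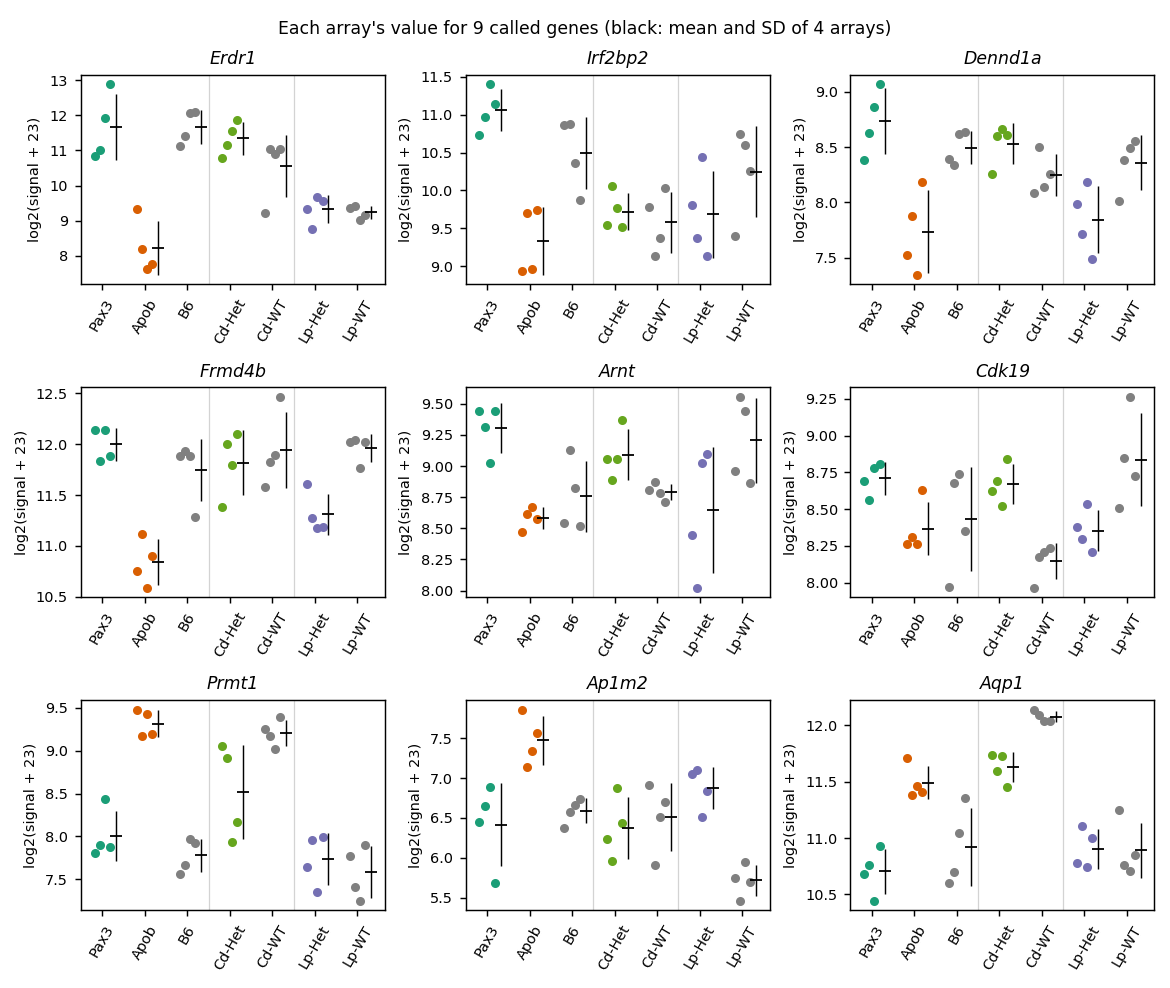
Value of each array, log2(signal + 23), for 9 called genes in the 7 groups, with the mean and SD of 4 arrays in black beside the points. Wild types are grey, and grey lines separate B6 with its 2 mutant groups from the Lrp6 and the Vangl2 pairs; for Frmd4b and Ap1m2 both resistant groups lie apart from their controls.

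In Rnf11 and Zfp148, of the other Apob single-line genes, the contributions of the other 3 lines added up to no more than 0 in the direction of the contrast. Rnf11, a RING-type ubiquitin ligase adaptor, read 3125, 2829, 3046 and 3060.3 in Apob against 8484, 7387, 7856 and 7271 in B6, and Zfp148, a zinc finger transcription factor outside the rule for named genes and added so that all 17 are named, 768, 846, 745 and 810.0 against 1995, 2092, 2220.0 and 1565. The other 3 lines had effects of -0.17, -0.13 and -0.12 in Rnf11 and of -0.066, -0.11 and -0.057 in Zfp148 (Pax3, Lrp6 Cd and Vangl2 Lp in that order). Without the Apob line their contrasts were -0.029 and -0.030, with the sign turned. Bicd2, a cargo adaptor of dynein, Gprin3, an inducer of neurite outgrowth, Dhx36, a helicase of G-quadruplexes, and Mindy2, a deubiquitinase, had contrasts of 0.75 to 0.89 and Apob shares of 66.3% to 85.1%. Bicd2 read 397, 499, 451 and 361 in Apob against 955, 1371, 1519 and 935 in B6, and Gprin3 695, 518, 526 and 505 against 1570.2, 1948, 1559 and 1111. In both, every Apob array lay below every B6 array, and the Apob effect was -1.41. Dhx36 read 525, 804, 665 and 985 in Apob against 1701, 1949.5, 1629 and 1344 in B6, and Mindy2 621, 722, 539 and 862 against 1295, 1677, 1459 and 1122, again without overlap. In these 4 genes the groups of the other 3 lines overlapped their controls. Their Cd-WT arrays overlapped those of Apob, and the wild type means spanned 1.43 in Gprin3, 1.23 in Dhx36 and 1.02 in Mindy2 (log2).

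Not every probe set of these genes gave the same contrast. The 5 other probe sets of Zfp148 ranged from -0.29 to 0.24, the 3 others of Rnf11 from -0.24 to -0.01, and those of Dhx36 were -0.11 and 0.064. The other probe set of Gprin3 had -0.82 and that of Cdk19 -0.017, and the 4 others of Arnt ranged from -0.078 to 0.39. The 5 others of Bicd2 ranged from -0.24 to 0.71, below the 0.89 of the probe set used, and those of Mindy2 were 0.38 and 0.025 against 0.75. The results for these genes are thus those of their brightest probe set.

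The Apob arrays lay apart from all B6 arrays in 15 of the 17 genes, against 9.42% of all genes tested. The choice of the 17 by a contrast that holds the Apob arrays favours this. In 10 of those 15 genes the Apob arrays overlapped the wild types of another line's stock, Cd-WT or Lp-WT. Ap1m2, Aqp1, Frmd4b, Nat8f2 and Rnf11 overlapped neither, and Bicd2, Zfp148 and Prmt1 overlapped Cd-WT only. A group could lie apart above or below, and in Aqp1 and Rnf11 the Apob mean lay between wild type means. For Aqp1 it was 11.49, against 10.92 in B6 and 12.08 in Cd-WT (log2). For Rnf11 it was 11.57, against 11.08 in Cd-WT and 12.71 in Lp-WT. Among the 302 genes called in the Apob line and apart from B6, 258 (85.4%) overlapped another wild type group, and 88% of all 1242 genes apart from B6 did. The means of the 3 wild type groups differed by as much as 2.43 in Erdr1, 1.84 in Rnf11 and 1.62 in Prmt1 (log2), and by 0.22 in Frmd4b. The part of such differences between stocks in the Apob effects was not tested.

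Within a class, the effects of the lines had the same sign in about as many genes as they had opposite signs. Pax3 and Lrp6 Cd effects, which share no arrays, had the same sign in 46.1% of genes, with r = -0.067 across genes. Apob and Vangl2 Lp effects had the same sign in 49.9%, with r = -0.051. Genes are not independent replicates, and the arrays share platform and scaling, so these are descriptions. Tested against each other, the responsive lines differed in 1 gene (limma, 0.00759%): Cog7, a subunit of a Golgi tethering complex, with an effect of 0.96 in Pax3 and -0.78 in Lrp6 Cd. The resistant lines differed in 214 genes (1.62%). The effects of single lines were called in 0 genes for Pax3 (0%; 1253 at unadjusted p below 0.05), 0 for Lrp6 Cd (0%; 449), 346 for Apob (2.63%; 175 higher and 171 lower) and 27 for Vangl2 Lp (0.205%; 17 higher and 10 lower). Of the 17 genes, 13 were called in the Apob line and 0 in the other 3, a count that the contrast itself contains.

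The contrast is the mean of 2 components with no array in common, Pax3 minus Apob and the Lrp6 Cd effect minus the Vangl2 Lp effect. The former was called in 571 genes (4.33%), 325 higher in Pax3 and 246 higher in Apob, and the latter in 0 genes (0%; 828 at unadjusted p below 0.05, limma). Of the 571 genes, 310 (54.3%) had the same sign in the Lrp6 and Vangl2 component, against 52.3% of all genes. At unadjusted p below 0.05 in that component, 24 of them had the same sign and 26 the opposite. Across all genes the components had r = 0.0126. Of the 17 called genes 15 had the same sign in both, which their choice by the sum favours.

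**Figure D3:**
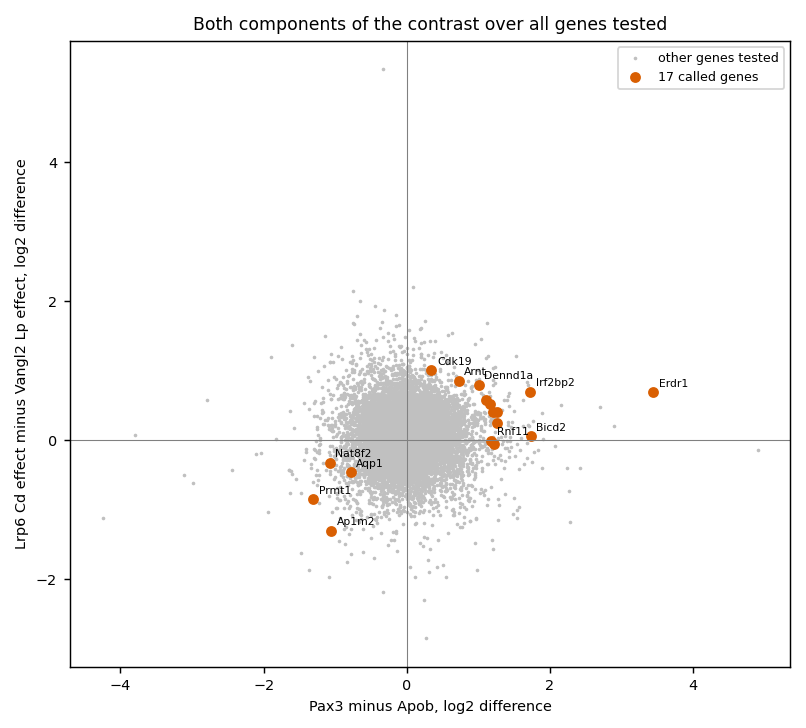
Log2 difference of Pax3 minus Apob (horizontal) against the Lrp6 Cd effect minus the Vangl2 Lp effect (vertical) for 13178 genes, with the 17 called genes in orange. The grey cloud shows no common slope (r = 0.0126), and Rnf11 and Bicd2 lie near the horizontal axis while Cdk19 and Ap1m2 lie farther from it.

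Leaving out a whole line, with its class represented by the other line, gave very different counts. Without Pax3, 1 gene was called, Prmt1 (0.00759%), and without Lrp6 Cd there were 209 (1.59%). Without Vangl2 Lp there were 342 (2.6%), and without Apob 4 (0.0304%), of which 0 were among the 17. Those 4 were Alas1, the first enzyme of heme synthesis, Apcs, serum amyloid P, St3gal5, the synthase of ganglioside GM3, and Clp1, an RNA kinase, all lower in the responsive lines. Their Vangl2 Lp effects were 2.52, 1.25, 1.69 and 0.67 in that order, each called in that line. Of the 17, the contrast without Apob kept its direction in 15 and had an unadjusted p below 0.05 in 7 (limma). Both counts are favoured by the choice of the 17, since the 2 contrasts share the arrays of the other lines. Of all 13178 genes tested, 1482 had an unadjusted p below 0.05 without Apob (limma).

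No gene of the folate pathway was called in the contrast. Of the 25 tested genes of folate transport and the folate cycle, 13 had a positive contrast and 0 were called (limma; 2 at unadjusted p below 0.05 in each direction). Their median was 0.0094, against 0.0091 over all genes, of which 51.4% were positive. Gart, a trifunctional enzyme of purine synthesis, had 0.34 ± 0.13 (limma adjusted p = 0.251), with signals of 755, 668, 851 and 725 in Pax3, 700.2, 834, 808 and 574 in B6 and 540.0, 564, 624 and 622 in Apob, and with 3 other probe sets at -0.32, -0.080 and -0.24. Ftcd, which feeds formimino groups from histidine into the folate pool, had -0.26 ± 0.11 (limma adjusted p = 0.295) and was led by Apob. Folr2, a folate receptor of macrophages, had -0.30 ± 0.13 and was led by Pax3, whose arrays (677 to 762) lay below those of B6 (866 to 1285). Gldc, the decarboxylase of the glycine cleavage system, had 0.41 ± 0.20 and was led by Vangl2 Lp. The reduced folate carrier Slc19a1 (0.0094), the proton-coupled transporter Slc46a1 (0.025) and methionine synthase Mtr (0.035) had contrasts near 0. The standard errors of the 25 genes set what could be seen, and a gene that missed the threshold is not shown to be equal in the classes.

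Most genes of the methionine cycle and transsulfuration had negative contrasts, without a call. Of 22 tested, 7 were positive, 5 had an unadjusted p below 0.05, all lower in the responsive lines, and the median was -0.12. By line, the median effect was -0.18 in Pax3, -0.0013 in Lrp6 Cd, 0.0055 in Apob and 0.013 in Vangl2 Lp. The contrast's median was -0.039 without the Pax3 line and -0.041 without the Vangl2 Lp line. It was -0.13 without Apob and -0.17 without Lrp6 Cd. Bhmt, which remethylates homocysteine with betaine, had -0.58 (limma adjusted p = 0.140), with all 4 lines in that direction. Gnmt, the glycine methyltransferase that consumes surplus S-adenosylmethionine, had -0.34 and Mat1a, which makes it, -0.25. After quantile normalization the list's median was -0.052. Among 22 protein and DNA methyltransferases 18 were positive, with a median of 0.20, 0.12 without Apob replicate 1, and Prmt1 was the called member, in the opposite direction. Dnmt1, the maintenance DNA methyltransferase, had 0.51 and Dnmt3a, a de novo one, 0.51, both led by Vangl2 Lp and neither called (limma adjusted p = 0.161 and 0.335).

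Among lists of at least 10 tested genes, the medians farthest from 0 were those of genes with sex-biased expression in the liver, in mice that were all female. All 10 tested male-biased genes had a negative contrast, 6 of them at unadjusted p below 0.05 and 0 called, with a median of -0.80. Their median effect was -0.82 in Pax3, -0.23 in Lrp6 Cd, 0.83 in Apob and 0.11 in Vangl2 Lp. Hsd3b5, a keto-steroid reductase, had -2.69 (limma adjusted p = 0.0787), with effects of -1.99 in Pax3 and 2.27 in Apob. Slco1a1, an uptake transporter of organic anions, had -1.86, with -2.53 in Pax3 and 1.27 in Apob. Of 13 female-biased genes 11 were positive with a median of 0.47, and 0.21 without Apob replicate 3. In Apob the median was -1.09, 0 of 13 were positive and 4 were called lower. Pax3 had -0.39 in the same genes. Their mean log2 values were 11.28, 11.09, 9.38 and 10.80 on the Pax3 arrays, against 10.79 to 11.20 in B6, so that replicate 3 alone lay below the B6 arrays. Sult2a2, a hydroxysteroid sulfotransferase, had 2.38 in the contrast and -4.29 in Apob (limma adjusted p = 0.123 for the contrast). The medians of both lists kept their sign under quantile normalization and median centring, with 1 male-biased gene positive under the former.

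The lists of oxidative phosphorylation, ribosomal proteins, lipoproteins and acute phase genes had negative median contrasts whose size or sign depended on the scaling of the arrays. Of 49 nuclear-encoded oxidative phosphorylation subunits 3 were positive, 16 had an unadjusted p below 0.05, all lower, and the median was -0.22, or -0.14 without Apob replicate 1. It was -0.21 in Pax3, 0.012 in Lrp6 Cd, -0.034 in Apob and 0.22 in Vangl2 Lp. After quantile normalization the contrast's median was -0.061, with 12 positive. Of 42 ribosomal protein genes 5 were positive, with a median of -0.10, which was -0.024 without Apob replicate 1 and 0.062 after quantile normalization. Lipoprotein genes had -0.16, -0.077 without Apob replicate 1 and 0.016 after quantile normalization, and Apoc3 (-0.35), Apoa2 (-0.33) and Apoe (-0.29), apolipoproteins of circulating particles, were among the 8 at unadjusted p below 0.05 with a negative contrast. Acute phase genes had -0.17, and -0.059 after quantile normalization. The sign of the median thus turned for ribosomal proteins and lipoproteins. These shifts lay beside those of the summed hepatocyte markers given with the cell markers, whose part was not tested. In the order Pax3, Lrp6 Cd, Apob and Vangl2 Lp, the median effects of lipoprotein genes were -0.33, -0.037, -0.16 and 0.20. Those of ribosomal protein genes were -0.17, 0.018, -0.14 and 0.22, and of acute phase genes -0.21, 0.019, 0.092 and 0.24. Without the Apob line the contrast's median was -0.43 in lipoprotein genes and -0.30 in ribosomal protein genes.

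Cholesterol synthesis genes had negative median effects in all 4 lines, farthest from 0 in 1 line of each class. Their 20 tested members had a median effect of -0.52 in Lrp6 Cd and -0.61 in Apob, against -0.087 in Pax3 and -0.065 in Vangl2 Lp, and the contrast had 0.10 with 12 positive. This median was -0.052 without Pax3 replicate 1 and 0.24 without Pax3 replicate 4, so that a single array turned its sign. Cyp51, the lanosterol demethylase, had -0.80 in Lrp6 Cd and -1.07 in Apob, which left 0.14 in the contrast. Pparg, a nuclear receptor of lipid storage, had 1.00 (limma adjusted p = 0.0537), with an Apob effect of -1.91 and 0.63 in Vangl2 Lp. Irs2, an adaptor of the insulin receptor, had 0.74 (limma adjusted p = 0.0723), with -0.54 in Apob and -0.87 in Vangl2 Lp. Gclc, the catalytic subunit of the first enzyme of glutathione synthesis, had 0.68, with -0.56 and -0.78 in the same lines. In the bile acid list the efflux pump Abcc3 had 0.85, with -0.80 and -0.86, so Irs2, Gclc and Abcc3 had negative effects in both resistant lines, and none was called in the contrast.

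**Figure D4:**
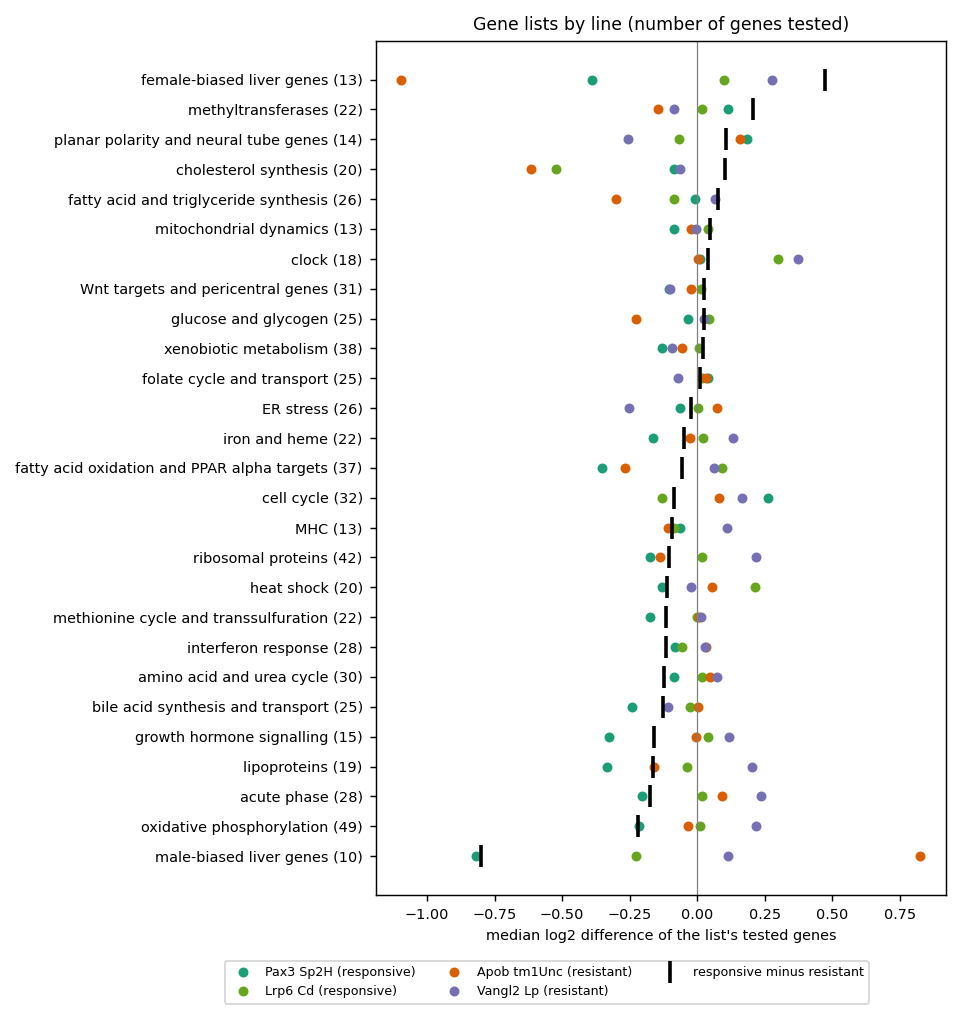
Median log2 difference of each gene list with at least 10 tested genes, by line (coloured points) and for the contrast (black bars); the number of genes is in brackets. Male-biased genes lie at -0.82 in Pax3 and 0.83 in Apob, and cholesterol synthesis genes lie low in Lrp6 Cd and Apob.

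Of the genes with a negative contrast that was not called, those with the smallest p were Ccdc127, Msl3, Clec2d, Apcs, Vsig4 and Gpr182, with limma adjusted p from 0.0537 to 0.0634. Ccdc127, a coiled-coil protein, had -0.69 and was led by Pax3, whose arrays read 596, 770.1, 647 and 1048 against 924, 1051, 1118 and 1511 in B6. The 3 other Ccdc127 probe sets gave contrasts of -0.056, 0.27 and 0.069. Clec2d, a lectin bound by a natural killer cell receptor, had -1.20 and was led by Lrp6 Cd, with 1450.4, 1032, 1298 and 874 in Cd-Het and 2732, 1269, 1943 and 3003 in Cd-WT. Msl3, a chromatin protein, had -0.61 with like effects in both resistant lines (0.52 and 0.54). Vsig4, a complement receptor of Kupffer cells, had -0.58 and Gpr182, a receptor of sinusoidal endothelium, -0.60, both led by Apob. In bulk tissue, fewer cells of a type and less RNA per cell cannot be told apart.

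Markers fixed for the tissue were those of liver. The hepatocyte genes Alb, Apoa1, Ttr and Fgb had mean signals of 48459 to 64934, while Adipoq and Lep of fat and Cpa1 of pancreas were below the filter. Of the pancreas markers, the elastase Cela1 had a mean signal of 2132 and the trypsinogen Prss2 of 251, both above it. The sum of the 3 measured pancreas markers was 2961 to 3849.7 in Apob, above the 1592 to 2273 in B6, and 1043 to 1802 in Pax3. Most of this sum was Cela1, and only 1 of the 2 tested members had a positive Apob effect. The sum overlapped its control in the other lines, and its part in the Apob results was not tested. The 4 hepatocyte markers had a median contrast of -0.33, 0 of 4 positive, which was -0.041 after quantile normalization, with 1 positive. Their summed signal was 152951 to 191271 in Pax3, below the 220768 to 244298 in B6, and 228716 to 319146 in Lp-Het, above the 195316 to 221853 in Lp-WT. The 9 Kupffer cell markers had a median of -0.0041 with 4 positive, which ran from -0.072 without Lp-Het replicate 3 to 0.088 without Cd-WT replicate 3. The 6 endothelial markers had -0.16 with 1 positive, and the 6 stellate cell markers -0.17 with 2 positive. The stellate median was -0.049 without Pax3 replicate 4 and -0.26 without Cd-WT replicate 4, and the mean log2 value of these markers was 11.25 on Pax3 replicate 3 against 9.52 to 10.03 on the other Pax3 arrays. The 4 bile duct markers (Krt7, Krt19, Epcam and Sox9) had -0.49 with 0 positive, and their summed signal ran from 243 to 454 in Pax3, 205 to 767 in Cd-Het, 392 to 495 in Apob and 494 to 747 in Lp-Het, against 351 to 431 in B6, 356 to 427 in Cd-WT and 292 to 550.1 in Lp-WT. Their part in the Ap1m2 and Aqp1 results was not tested.

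The count of 17 depended on single arrays. It fell to 0 without Cd-Het replicate 4, Lp-Het replicate 4 or Lp-WT replicate 2 (limma, with 1485, 1617 and 1496 genes at unadjusted p below 0.05). There were 1 without Apob replicate 1, 2 without Cd-WT replicate 1 or 3, 3 without Cd-Het replicate 2 and 4 without Apob replicate 2 or Lp-Het replicate 1. There were 5 without Lp-Het replicate 2 or Lp-WT replicate 3, 6 without Cd-WT replicate 2, 7 without Pax3 replicate 4 or Apob replicate 3, 8 without Pax3 replicate 3 and 9 without Apob replicate 4. The count was 28 without Pax3 replicate 1, 35 without B6 replicate 4 or Cd-Het replicate 1 and 41 without Lp-Het replicate 3. Erdr1 stayed called in 25 of the 28 fits, lost without the 3 arrays that gave 0, and Prmt1 in 24, lost also without Apob replicate 1. Dennd1a and Frmd4b stayed called in 21, and the other 13 genes in 6 to 13, with adjusted p up to 0.116 (limma). With each array centred on its median, 18 genes were called, 7 positive and 11 negative (38.9% positive against 76.5%), 11 of them among the 17.

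**Figure D5:**
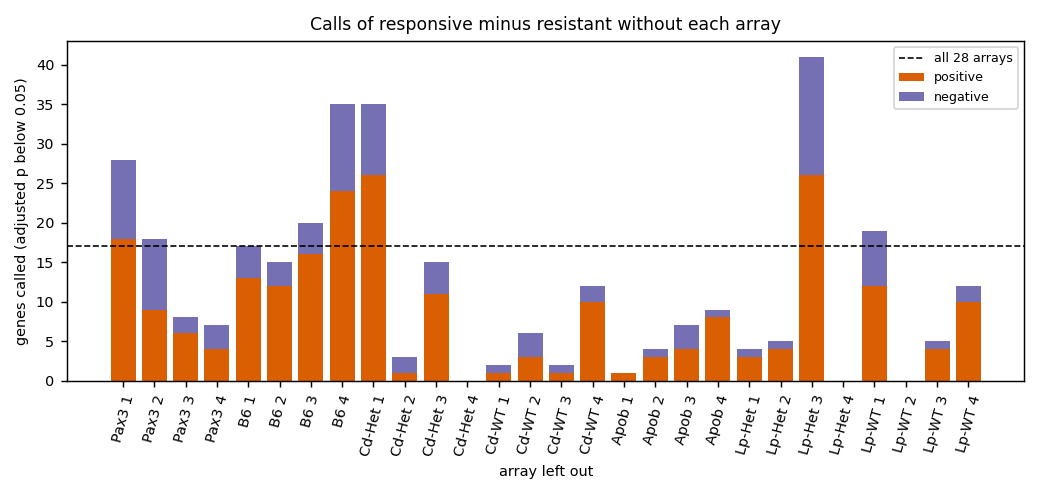
Number of genes called in the contrast (limma, adjusted p below 0.05), positive and negative stacked, when each of the 28 arrays is left out; the dashed line marks the 17 of all arrays. Counts run from 0 to 41, and 3 arrays each take the count to 0.

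The ratio of 3' to 5' control signal, a measure of RNA integrity and labelling, was 0.729 to 0.956 for GAPDH on the 28 arrays. That of pyruvate carboxylase was 2.99 to 5.21 on the Apob arrays, below every B6 (5.99 to 26.6) and Pax3 array (6.65 to 11.1) and overlapping Cd-WT (4.25 to 8.19), and its part in the genes led by Apob was not tested. Lp-Het replicate 4 had the highest lower-quartile signal, 56.2 against 25.1 to 40.3 on the others, and Pax3 replicate 3 the lowest median correlation with the other arrays, 0.933. Of the mutated genes, Apob itself had signals of 2654, 11144, 5339 and 12260.2 in Apob and 25684, 27268, 25069.9 and 17299 in B6, an effect of -1.82 ± 0.39 and a contrast of 1.14 that was not called (limma adjusted p = 0.147). Lrp6 had a contrast of 0.65, with 0.30 in its own line and -0.60 in Apob, and Vangl2 of -0.24, neither called, and Pax3 was below the filter.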

How the data were processed

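The deposited values were linear Affymetrix signal intensity per probe set, computed by the authors with MAS5 per the submitters' processing notes (version not given in the sources used here). Each array had a trimmed mean of 500 (2% removed at each end), as computed here from the values. Per the labels' protocols, 3 µg of total liver RNA per mouse was labelled as biotinylated cRNA. Of 45101 probe sets, 34945 had 1 gene symbol in the platform annotation, 932 several and 9160 were unnamed here; 64 were controls; 34741 matched a current Entrez entry. Each of 18193 symbols was represented by its brightest probe set on average, and the 13178 with a mean log2(signal + 23) above 6.41 (signal 62.0, the 40th percentile) were tested.

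The model was fitted in R 4.3.3 using limma 3.58.1 and an intensity-dependent prior variance, on 28 arrays in 7 groups of 4 (21 residual degrees of freedom), with Benjamini-Hochberg adjustment. Named genes were, among called genes, the 12 largest differences of each sign, the 4 single-line genes of smallest p for each leading line, up to 8 4-line genes and, per list, at most 4 called members; the 10 smallest p of a direction with fewer than 10 calls; the mutated genes; and the 4 folate genes of smallest p. Other genes, such as list members given as examples, were named after their values were seen. The members and lists were chosen with earlier results of these data known. Ct and CBA arrays were left out, except in 2 alternatives and in the closing observation. Same-numbered arrays did not deviate together (16 labelled pairs, correlations of -0.145 to 0.184, 1 above 0.1), so the replicate numbers were not taken as pairs. The labels call the arrays biological replicates, and their number limits the precision. The alternatives tried were the scaling, centring, offset, filter, variance trend, arrays in the fit, shared probe sets, replicate block and the omission of single arrays or lines. The model was tested on simulated data. Figures were drawn with Python 3.11.15 and matplotlib 3.10.9.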

Additional observations from a re-analysis of the deposited data

Results flagged for a closer look

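Among 119 groups of 4 arrays (17 called genes in 7 groups), 8 held an array that stood apart from the other 3, and chance gives about 1 in 20. Erdr1 was 577 on Cd-WT replicate 1, against 1901 to 2088 on the others. Frmd4b was 2475 on B6 replicate 4, against 3745 to 3879, and 3449 on Lp-WT replicate 3, against 4137 to 4194. Galnt7 was 637 on Pax3 replicate 3, against 289.9 to 308, and Prmt1 was 324 on the same array, against 200.4 to 216. Gprin3 was 695 on Apob replicate 1, against 505 to 526. Cdk19 was 374 on Apob replicate 4, against 284 to 295, and Dennd1a was 283 on Cd-Het replicate 1, against 365 to 382.

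The Apob effect differed from the Vangl2 Lp effect, both resistant, in 5 of the 17 called genes by the test of the difference itself (limma). The difference was -3.54 in Erdr1 (adjusted p = 0.00146), -1.22 in Gprin3 (0.0183), 1.38 in Prmt1 (0.0125), -1.23 in Rnf11 (0.00132) and -1.22 in Zfp148 (0.00132).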

How the results depend on the processing

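The 17 calls of the contrast (13 positive, 4 negative) became 11 (9 and 2) with quantile normalization, 11 (7 and 4) with no filter, 27 (19 and 8) with a stricter filter, 5 (3 and 2) with no variance trend and 1 with all 36 arrays in the fit. With the replicate block there were 5, and the Pax3 effect had 1. Median centring gave 18 (7 and 11), with the median of all genes at -0.064. Counts were 16 and 18 with offsets of 8 and 64, 17 without shared probe sets and 21 with Ct minus CBA as another resistant line, of which 2 (Ap1m2 and Frmd4b) were among the 17. Without the Pax3, Lrp6 Cd, Apob and Vangl2 Lp line they were 1, 209, 4 and 342. Leaving out single arrays gave 0 to 41 for the contrast, 0 to 4 for Pax3, 0 to 0 for Lrp6 Cd, 135 to 517 for Apob, 2 to 60 for Vangl2 Lp, 0 to 3 for Pax3 against Lrp6 Cd, 123 to 280 for Apob against Vangl2 Lp, 293 to 640 for Pax3 minus Apob and 0 to 1 for the Lrp6 and Vangl2 component. The Pax3 effect had 3 calls with quantile normalization, 1 with median centring, 1 with an offset of 8 and 2 with no trend. Pax3 against Lrp6 Cd had 0 with quantile normalization (941 at unadjusted p below 0.05, limma), median centring (1002) and all 36 arrays (502). With all 36 arrays Apob had 69, Vangl2 Lp 4, Apob against Vangl2 Lp 46 and Pax3 minus Apob 150. Settings with 0 calls had 1485 to 1617 genes at unadjusted p below 0.05 for the contrast, 703 to 1646 for Pax3, 276 to 659 for Lrp6 Cd, 502 to 1126 for Pax3 against Lrp6 Cd and 428 to 1162 for the Lrp6 and Vangl2 component (limma). The sign turned for Vangl2 without Lp-WT replicate 1 (0.0060; -0.35 to 0.0060 over all arrays left out), for Rnf11 (-0.029) and Zfp148 (-0.030) without the Apob line, which carries them, and for Rnf11 with Ct (-0.081). The other causes were not tested. Signals near the filter of 62.0, as for Ap1m2 in Lp-WT, limit the smallest differences.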

Other observations

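The curly tail arrays, a resistant line that the contrast did not use, were set against CBA for the 17 called genes. The difference of curly tail minus CBA had the sign opposite to the contrast, which is the sign of a resistant line that adds to it, in 13 of the 17 genes (76.5%), against 52.7% of all genes tested. With Ct replicate 3 and CBA replicate 4 left out, it was 13 of 17 against 57% of all genes. Among the 346 genes called in the Apob line, the sign was opposite to the contrast in 169, and in 189 with those 2 arrays left out. The share of the 17 was thus not seen in the genes called in the Apob line. Frmd4b had -0.85 and Ap1m2 1.47, and Nat8f2 (1.00) and Aqp1 (0.95) were positive where the contrast was negative. Erdr1 (0.91), Rnf11 (1.26), Dennd1a (0.52) and Prmt1 (-0.035) had the sign of the contrast. Without those 2 arrays, Frmd4b had -0.71 and Ap1m2 1.20, while Nat8f2 (0.44), Aqp1 (0.44), Rnf11 (0.47) and Dennd1a (0.076) had less than 50% of their values and Erdr1 had 0.90. These values carry no test, and the curly tail stock and the CBA strain differ by more than the mutation.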
